A study of Mus musculus with 5 samples.

Results

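Synaptic vesicle and exocytosis genes were examined in RNA-seq of the mouse hippocampus after deletion of *Hdac1*, which encodes histone deacetylase 1. The set was a list of 41 named genes for vesicle membrane proteins, SNAREs, priming and active zone proteins and endocytic proteins. It was written down by gene function and not by measured values, although results of these data were already known. All 41 genes were among the 23361 gene symbols of each library, and all 41 passed the filter of a mean of at least 1 FPKM, as did 12740 genes altogether. FPKM is a fragment count scaled to transcript length and to the size of the library. The question was whether these genes shared a small, broad decrease in the mutant.

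The 5 samples were hippocampal tissue from mice aged 3 months, and every animal carried the floxed allele *Hdac1* f/f. The 2 control samples had the genotype Hdac1f/f, and the 3 *Hdac1* cKO samples had the genotype Hdac1f/f, Nestin-Cre. According to the study's methods, young animals were male. The study describes the deletion as one of neurons and astrocytes, with the protein still detectable in microglia. The control genotype names no Cre transgene, so an effect of the deletion and an effect of the transgene cannot be told apart. The study describes the 5 samples as 5 mice, and with 2 against 3 every comparison rests on the spread between few animals.

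A synaptic vesicle is filled with transmitter, tethered to the active zone, primed, and fused with the plasma membrane when calcium enters the terminal. Fusion is driven by SNARE proteins on the vesicle and the plasma membrane, which zip together, and is timed by synaptotagmins, the calcium sensors, and complexins. After fusion, NSF and its adaptors take the SNARE complex apart, and dynamin, amphiphysin and related proteins retrieve the membrane. These genes are expressed throughout the hippocampus because most of its neurons form such terminals.

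The targeted gene was read first as a check of the labels. *Hdac1* (chr4:129193348-129219957, minus strand, mm9) had 8.95 and 13.1 FPKM in control 1 and control 2 and 1.95, 3.12 and 3.37 FPKM in cKO 1, cKO 2 and cKO 3. The cKO mean was 25.5% of the control mean, and no cKO library reached a control library. On the log2 scale the difference was -1.66. Its adjusted p in limma was 0.219, and 0.00389 once the sets of libraries described next entered the model.

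The libraries did not form a single technical group. In genes of low FPKM, control 1 and cKO 1 shared their steps of values (set 1), and so did control 2, cKO 2 and cKO 3 (set 2). Between 24.6% and 28.4% of low genes fell in the fullest step window for the 4 pairs within a set, against 3.71% to 4.64% for the 6 pairs across sets. What the sets are is not stated in the sources used here, and they were found after the data had been seen. Each set holds both genotypes, so results are also given within sets, and with the set as a term in the model (set block). Depth was estimated at 5130000 fragments for cKO 2 and at 6300000 to 6800000 for the other libraries.

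**Figure D1:**
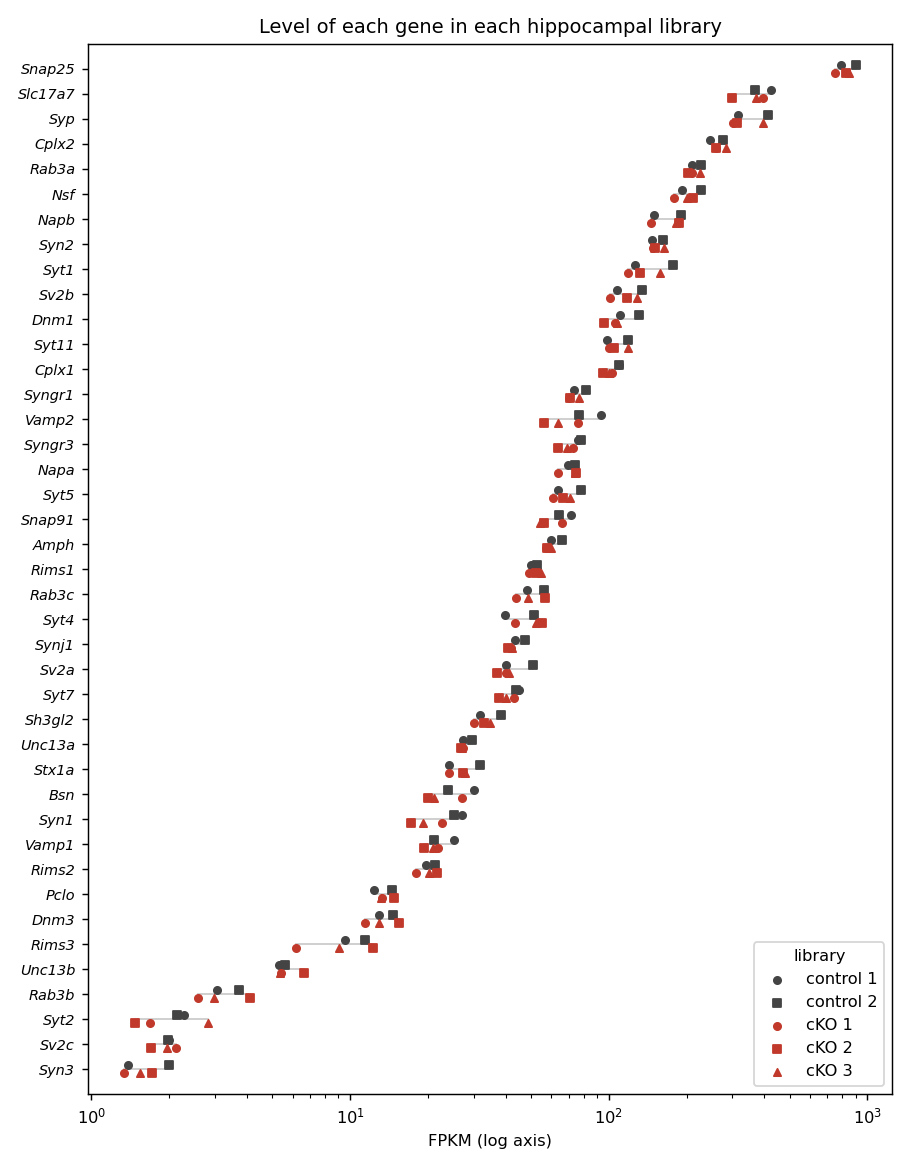
FPKM of each of the 41 genes (log axis) in the 2 control libraries (grey, upper) and the 3 *Hdac1* cKO libraries (red, lower), ordered by mean level. Levels run from *Syn3* at 1.34 to 1.99 FPKM up to *Snap25* at 749 to 903 FPKM, and within most genes the 2 groups overlap.

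Levels spanned a wide range. *Snap25*, the plasma membrane SNARE of the nerve terminal, was the most abundant member and ranked 74th of all genes by mean FPKM. It was followed by *Slc17a7*, which encodes the vesicular glutamate transporter of hippocampal principal neurons, and *Syp*, which encodes synaptophysin. The median member had 51.7 FPKM, 13 members had at least 100 FPKM, and 4 members (*Syn3*, *Sv2c*, *Syt2* and *Rab3b*) were under 5 FPKM. Replicates differed by a median coefficient of variation of 10.1% in control mice, compared with 8.80% in cKO mice. At the estimated depth *Syn1* rested on 288 to 599 fragments per library, whereas the 4 lowest members rested on 35 to 122. The standard error of the log2 fold change in limma was at least 0.091 in every member, the value of *Cplx1*. A change of a few percent was therefore not detectable in any single member, abundant or not.

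Most of the 41 genes were slightly lower in *Hdac1* cKO, by a few percent. The median log2 fold change was -0.09, beside 0.01 over all genes tested, and 34 of the 41 genes were negative (82.9%) where 46.3% of all genes were. In these whole-tissue values, fewer neurons and less of these RNAs per neuron cannot be told apart. By immunostaining, the study reports that neurons, astrocytes and microglia did not differ significantly in abundance between young cKO and control mice. The largest difference was in *Syn1*, and *Vamp2* came next. These 2 genes were lower at an unadjusted p under 0.05 in limma (4.88% of the 41), against a background of 1.99% of all genes in that direction. No member was higher at that p, where 2.37% of all genes were. A fold change of at least 1.5, as the study required, together with an unadjusted p under 0.05 in limma was reached by 0 members, beside 0.259% of all genes for a decrease and 0.400% for an increase. After Benjamini-Hochberg adjustment over the 12740 genes, the smallest value of a member in limma was 0.955. Among all genes 1 passed an adjusted p of 0.05 (0.00785%), the small nucleolar RNA *Snora30*, named here because it was the only one.

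The 95% interval of the fold change lay within 1.5-fold in both directions for 36 of the 41 genes (87.8%), a share near the 82.3% of all genes. It reached beyond a 1.5-fold decrease for the other 5, *Syn1*, *Vamp2*, *Rims3*, *Syt2* and *Bsn*. Every cKO library was below both controls in 8 genes (19.5%), beside 9.41% of all genes, namely *Syn1*, *Syngr3*, *Vamp2*, *Syt7*, *Cplx1*, *Unc13a*, *Dnm1* and *Synj1*. Every cKO library was above both controls in 0 members, beside 11.0% of all genes.

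In the fit of all cKO libraries on genotype only, the lower median of the set depended on 1 control. The members' mean log2(FPKM + 1) was 5.56 in control 1 and 5.70 in control 2, against 5.48, 5.54 and 5.58 in cKO 1, cKO 2 and cKO 3. The cKO 3 library was therefore above control 1, and the groups overlapped. Group means were 5.63 ± 0.0930 (SD, n = 2) and 5.53 ± 0.0505 (SD, n = 3). Control 2 was higher than control 1 in 31 members and lower in 10. Without control 2 the median log2 fold change turned from -0.09 to 0.02 and 18 members were negative. All genes then had a median of 0.043, with 41.5% negative. Without control 1 the members' median was -0.16 and 40 members were negative, beside -0.015 and 53.8% for all genes. Leaving out a control sets the other, from a single set of libraries, against cKO libraries of both sets, so set and genotype are mixed. Control 1 against cKO 1 alone, both of set 1, gave a median of -0.07 with 34 members negative.

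Within the sets of libraries the direction was negative in both. Between control 1 and cKO 1 the median member differed by -0.07 log2 units and 34 members were negative. Between control 2 and the mean of cKO 2 and cKO 3 it differed by -0.13 and 37 were negative. Of the 41 genes, 32 were lower in both sets (78.0%), where 29.1% of all genes were, and 2 were higher in both, where 30.9% of all genes were. With the set block the median was -0.12, 37 members were negative beside 48.8% of all genes, and 5 members were lower at an unadjusted p under 0.05 in limma (*Bsn*, *Dnm1*, *Snap91*, *Syn1* and *Vamp2*), against a background of 4.02%. None was higher, where 5.32% of all genes were. No adjusted p in that fit was under 0.05 for a member. Set 1 holds 1 library of each genotype and set 2 a single control, so neither direction has a control replicate of its own.

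**Figure D2:**
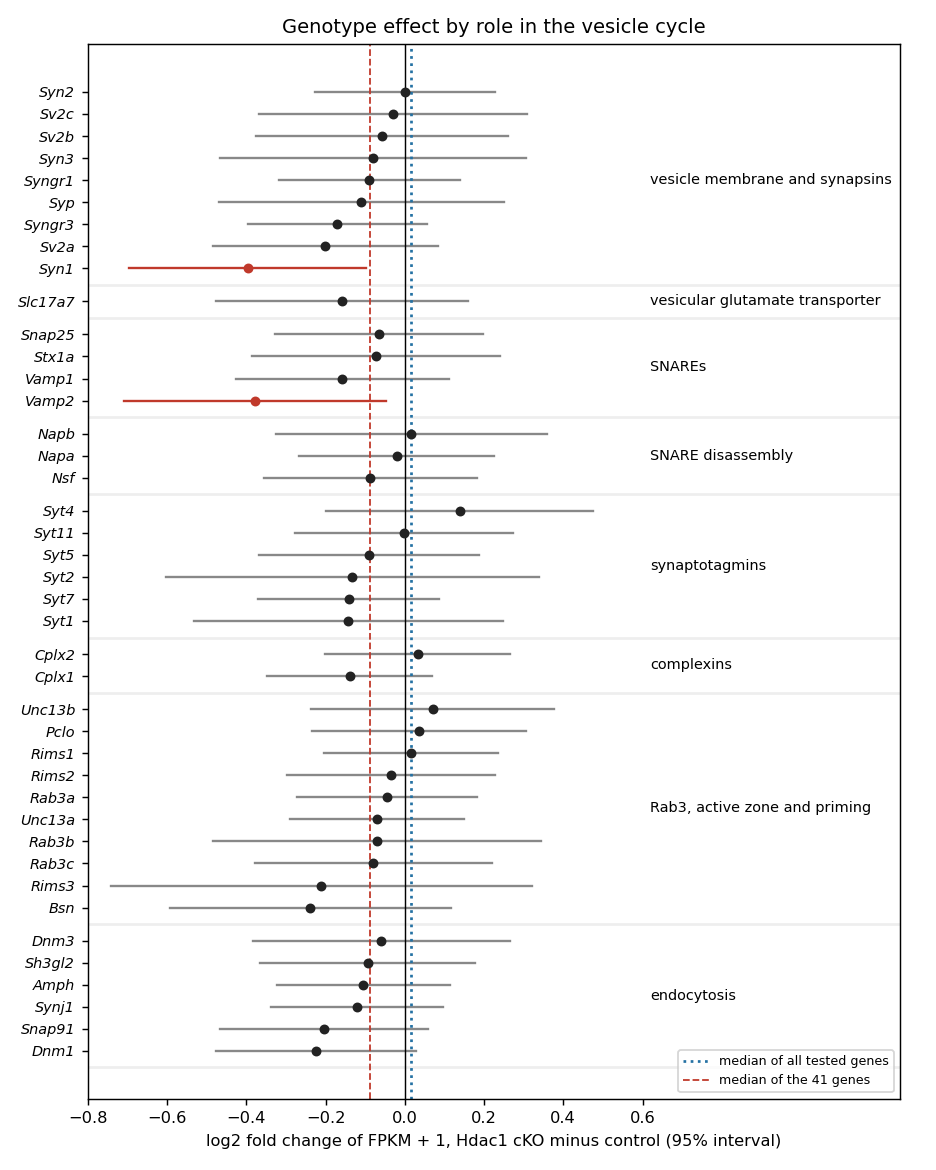
Log2 fold change of FPKM + 1 (*Hdac1* cKO minus control, points) with the 95% interval from limma (lines) for the 41 genes, grouped by role. *Syn1* and *Vamp2* (red) are the genes whose interval excludes 0, and the median of the 41 genes (dashed, -0.09) lies to the left of that of all tested genes (dotted, 0.01).

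Among the 9 genes for synapsins and vesicle membrane proteins, 8 were negative, with a median log2 fold change of -0.09. Synapsins coat vesicles and hold them in the reserve pool. *Syn1*, which encodes synapsin I (chrX:20437637-20498130, minus strand, mm9), had 27.0 and 25.1 FPKM in control mice, compared with 22.7, 17.2 and 19.1 FPKM in cKO mice. All 3 cKO libraries were below both controls. The means were 26.1 ± 1.33 (SD, n = 2) and 19.7 ± 2.77 (SD, n = 3), a level 24.5% lower. In limma the log2 fold change was -0.40 (SE 0.13, 95% interval -0.70 to -0.10), with an unadjusted p of 0.0155 and an adjusted p of 0.955. It was -0.24 within set 1 and -0.45 within set 2, and its unadjusted p in limma was 0.00442 with the set block. Without control 1 the log2 fold change was -0.35 and that p 0.0775.

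*Syn2*, the more abundant synapsin in these libraries, had 147 and 162 FPKM in control mice, compared with 148, 152 and 164 FPKM in cKO mice, which overlapped throughout, and its log2 fold change had a 95% interval of -0.23 to 0.23. The ratio of *Syn1* to *Syn2* was 0.184 and 0.155 in control mice, compared with 0.153, 0.114 and 0.117 in cKO mice. Each cKO ratio was thus below both control ratios, although cKO 1 and control 2 almost touched. *Syn3*, the third synapsin, had 1.34 to 1.99 FPKM and was too low to compare.

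Promoters of a few genes are shown as a description only. The paralogues *Syn1* and *Syn2* were picked after their values were seen, and whether motifs relate to fold changes was not tested. The other 3 genes illustrate windows with a GC box (defined below), which most of the set and also most tested genes had. Windows run from 250 bases before to 50 bases after the RefSeq start, 5′ to 3′ on the gene's strand, with coordinates of GRCm38.p6, a different build from the mm9 gene positions. Capitals mark GGGCGG (the GC box, the core site of Sp1-type factors), TGACGTCA (the cAMP response element) and TTCAGCACC (the left part of the site of the neuronal repressor REST), or their reverse complements.
*Syn1*, chrX:20920869-20921168, - strand: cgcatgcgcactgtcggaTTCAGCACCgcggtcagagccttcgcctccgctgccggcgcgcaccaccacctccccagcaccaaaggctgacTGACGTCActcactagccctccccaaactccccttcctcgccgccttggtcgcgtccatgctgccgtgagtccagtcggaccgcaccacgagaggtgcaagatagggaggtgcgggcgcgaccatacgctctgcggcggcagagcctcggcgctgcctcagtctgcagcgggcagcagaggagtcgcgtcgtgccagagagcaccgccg
*Syn2*, chr6:115134652-115134951, + strand: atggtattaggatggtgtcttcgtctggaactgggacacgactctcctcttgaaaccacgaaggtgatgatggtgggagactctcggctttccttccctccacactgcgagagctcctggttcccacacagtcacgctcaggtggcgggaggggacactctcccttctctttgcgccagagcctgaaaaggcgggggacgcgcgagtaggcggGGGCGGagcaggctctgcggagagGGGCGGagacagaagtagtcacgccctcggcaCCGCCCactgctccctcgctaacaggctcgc
*Syp*, chrX:7638330-7638629, + strand: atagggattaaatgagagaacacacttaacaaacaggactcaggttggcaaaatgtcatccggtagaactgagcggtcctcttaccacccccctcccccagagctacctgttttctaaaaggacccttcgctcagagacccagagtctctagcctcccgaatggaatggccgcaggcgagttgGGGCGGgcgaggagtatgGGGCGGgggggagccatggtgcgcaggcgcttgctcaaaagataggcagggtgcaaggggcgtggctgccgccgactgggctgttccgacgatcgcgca
*Slc17a7*, chr7:45163671-45163970, + strand: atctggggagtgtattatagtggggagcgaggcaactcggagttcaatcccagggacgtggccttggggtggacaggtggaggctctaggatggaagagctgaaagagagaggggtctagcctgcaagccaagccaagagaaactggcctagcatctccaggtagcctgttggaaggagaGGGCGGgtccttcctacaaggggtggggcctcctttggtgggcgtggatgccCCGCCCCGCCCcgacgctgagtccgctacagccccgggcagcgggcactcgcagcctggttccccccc
*Unc13a*, chr8:71671708-71672007, - strand: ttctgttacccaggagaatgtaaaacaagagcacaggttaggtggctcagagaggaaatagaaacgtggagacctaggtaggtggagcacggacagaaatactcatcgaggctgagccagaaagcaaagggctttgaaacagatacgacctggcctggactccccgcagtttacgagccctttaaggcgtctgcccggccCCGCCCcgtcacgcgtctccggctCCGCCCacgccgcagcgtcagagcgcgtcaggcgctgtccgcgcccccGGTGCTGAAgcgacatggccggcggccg

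In the *Syn1* window the REST part began 232 bases and the cAMP response element 159 bases before the start, and no GC box was present. The *Syn2* window shown held 3 GC boxes, the *Slc17a7* window 3, of which 2 share a base, and the *Syp* and *Unc13a* windows 2 each. A further *Syn2* window, not shown, held none of the marked motifs. The REST part also occurred in *Unc13a*, after the start and on the other strand. A match of letters is a description and shows no binding.

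Of the 41 genes, 33 matched the RefSeq promoter table, with 41 windows. *Rims2*, *Vamp2*, *Syt5*, *Syn3*, *Syngr3*, *Syt7*, *Syt4* and *Snap25* were not matched. A GC box on either strand occurred in 27 of the 41 windows (65.9%), beside 35.7% of 32851 windows of the table. Those 32851 windows also cover genes that were not tested here. Counted by gene, 26 members had a GC box and 7 had none, whereas 6612 of the tested genes had one and 2816 had none. The cAMP response element occurred in 3 windows (*Napa*, *Sh3gl2* and *Syn1*, 7.32% beside 1.79%), and the REST part in 2 (4.88% beside 0.371%). These windows were rich in G and C, with a median of 62.3% beside 52.7%. Members with and without a GC box had close medians. The 26 members with one had a median log2 fold change of -0.08 (22 negative), and the 7 without one had -0.09 (5 negative).

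The other vesicle membrane proteins lay closer to the control. *Syp* had 316 and 412 FPKM in control mice, compared with 302, 313 and 394 FPKM in cKO mice, so that cKO 3 was near the higher control and the groups overlapped (log2 fold change -0.11). *Syngr3*, which encodes a synaptogyrin, had 76.1 and 77.9 FPKM in control mice, compared with 73.0, 63.5 and 68.7 FPKM in cKO mice, without overlap (-0.17). *Sv2a* (-0.20), the most widely expressed of the SV2 vesicle glycoproteins, was set apart by 1 control, with 40.2 and 51.1 FPKM in control mice, compared with 39.9, 37.0 and 41.2 FPKM in cKO mice. *Syngr1* (-0.09), *Sv2b* (-0.06), *Syn3* (-0.08) and *Sv2c* (-0.03) overlapped between the groups. *Slc17a7*, alone in its role, had 424 and 367 FPKM in control mice, compared with 395, 300.4 and 372 FPKM in cKO mice, which overlapped (-0.16, 95% interval -0.48 to 0.16).

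All 4 SNARE genes were negative, with a median log2 fold change of -0.12. *Vamp2*, which encodes synaptobrevin 2, the vesicle SNARE of most forebrain terminals (chr11:68901992-68905886, plus strand, mm9), had 93.1 and 76.7 FPKM in control mice, compared with 75.7, 56.4 and 63.7 FPKM in cKO mice. The cKO libraries were all below both controls, but the highest of them, cKO 1, was within 1 FPKM of control 2. The means were 84.9 ± 11.6 (SD, n = 2) and 65.3 ± 9.76 (SD, n = 3), a level 23.1% lower. The log2 fold change was -0.38 (SE 0.14, 95% interval -0.71 to -0.05), with an unadjusted p of 0.0295 and an adjusted p of 0.955 in limma. It was -0.29 within set 1 and -0.35 within set 2, and the unadjusted p in limma was 0.00275 with the set block. Leaving out control 1 gave a log2 fold change of -0.24 with an unadjusted p of 0.198 in limma, leaving out cKO 2 gave -0.28 (0.0943) and leaving out cKO 3 gave -0.37 (0.0730).

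The plasma membrane partners of *Vamp2* had fold changes closer to 0. *Snap25* had 789 and 903 FPKM in control mice, compared with 749, 825 and 849 FPKM in cKO mice, and *Stx1a*, which encodes syntaxin 1A, had 24.2 and 31.9 FPKM in control mice, compared with 24.1, 27.2 and 27.9 FPKM in cKO mice. Both overlapped between the groups, with log2 fold changes of -0.06 (95% interval -0.33 to 0.20) and -0.07 (-0.39 to 0.24). *Vamp1*, the synaptobrevin more typical of brainstem and spinal cord, was at -0.16. The ratio of *Vamp2* to *Vamp1* was 3.69 and 3.63 in control mice, compared with 3.47, 2.93 and 3.05 in cKO mice, without overlap. Of 10 ratios between related members, 7 overlapped between the groups and 3 did not, those of *Syn1* to *Syn2*, *Vamp2* to *Vamp1* and *Unc13a* to *Unc13b*. Among single genes, every cKO library was below both controls in 9.41% of all genes and above both in 11.0%. No such share was computed for ratios, so the 3 are not read as a result about these pairs. Differences between these genes were not tested.

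The 3 genes that disassemble SNARE complexes were close to 0, with a median of -0.02. They were *Nsf* (-0.09), an ATPase, and its adaptors *Napa* (-0.02) and *Napb* (0.02). *Napb*, the neuronal form, had 149 and 190.2 FPKM in control mice, compared with 145, 187 and 182 FPKM in cKO mice, with the libraries of set 1 low in both genotypes.

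**Figure D3:**
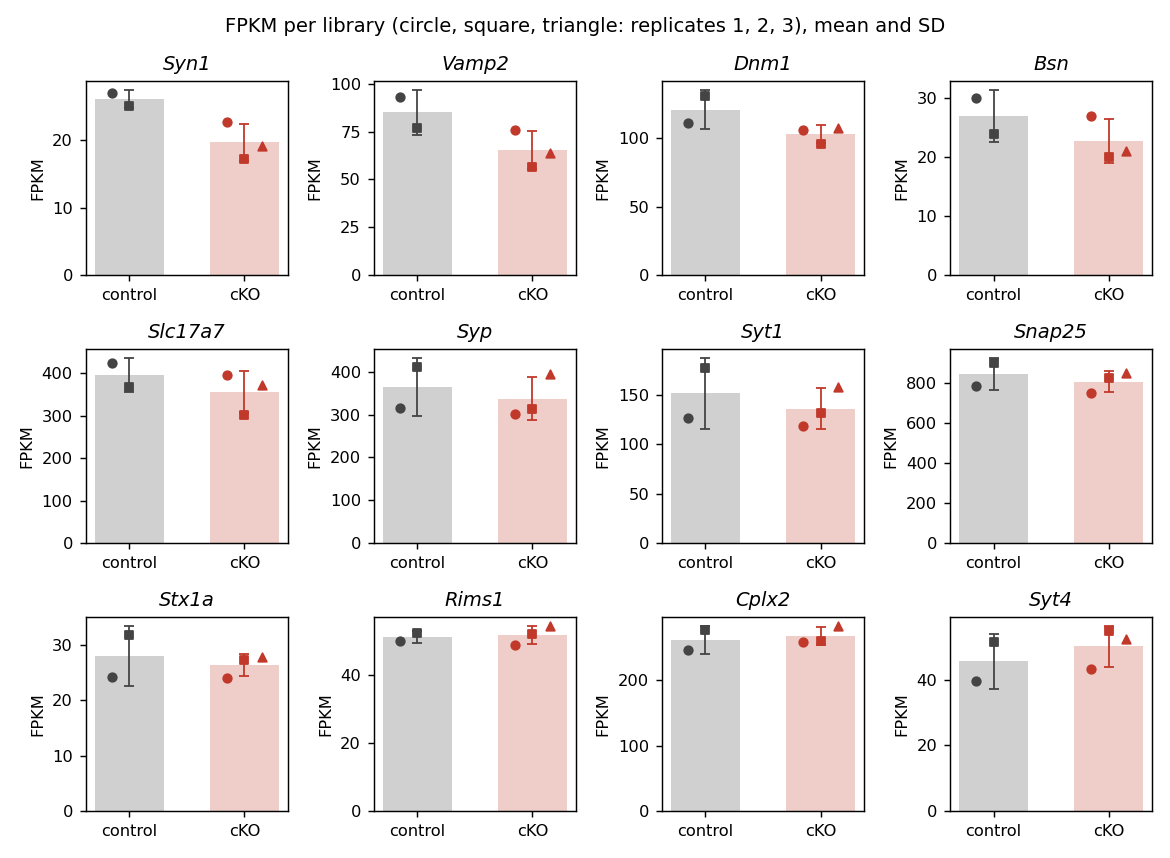
FPKM of 12 genes in each library (points), with the group mean (bar, from 0) and SD (error bar), for 2 control and 3 *Hdac1* cKO libraries. The cKO points lie below both controls in *Syn1*, *Vamp2* and *Dnm1* and overlap the controls in the other genes shown.

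Of the 6 synaptotagmins, 5 were negative, with a median of -0.11. *Syt1*, the sensor for fast synchronous release, had 126 and 177 FPKM in control mice, compared with 118, 132 and 158 FPKM in cKO mice. The controls were further apart than the group means, and its interval was wide (log2 fold change -0.14, 95% interval -0.53 to 0.25). *Syt7* (-0.14), which acts in asynchronous release and facilitation, was below both controls in every cKO library by a small margin, with 44.9 and 43.9 FPKM against 42.9, 37.6 and 40.0 FPKM. *Syt5* (-0.09), *Syt2* (-0.13) and *Syt11* (-0.0025) overlapped. *Syt4*, an activity-induced member that binds calcium poorly, had the highest fold change of the set (0.14, 95% interval -0.20 to 0.48), with 39.8 and 51.6 FPKM in control mice, compared with 43.2, 55.0 and 52.5 FPKM in cKO mice.

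The 2 complexins, which clamp and promote SNARE-driven fusion, had unlike fold changes, a difference that was not tested. *Cplx1* had 109 FPKM in both controls and 103, 94.9 and 100.4 FPKM in cKO mice, a level 9.21% lower with no overlap (log2 fold change -0.14, 95% interval -0.35 to 0.07). *Cplx2* had 247 and 277 FPKM in control mice, compared with 259, 261 and 284 FPKM in cKO mice, with overlap (0.03, 95% interval -0.20 to 0.27).

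Of the 10 genes for Rab3 proteins, active zone scaffolds and priming factors, 7 were negative, with a median of -0.06. *Bsn*, which encodes the scaffold bassoon, had 30.0 and 23.9 FPKM in control mice, compared with 27.0, 20.1 and 21.1 FPKM in cKO mice. It overlapped between groups, yet was lower in the cKO in both sets (-0.15 and -0.20), and its log2 fold change was -0.24 (95% interval -0.59 to 0.12). Its homologue *Pclo*, which encodes piccolo, had 12.4 and 14.5 FPKM in control mice, compared with 13.3, 14.8 and 13.2 FPKM in cKO mice (0.04). *Bsn* shares 1813 of its 15937 exonic nucleotides with a noncoding gene on the opposite strand, and whether counting used the strand was not stated. Exons of other members also overlap a gene on the opposite strand, a noncoding one for *Syp* (875 of 5211 nucleotides) and *Syt4* (575 of 3901), and the protein-coding *Timp3* for *Syn3* (1733 of 12282) and *Araf* for *Syn1* (9 nucleotides).

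*Rims1*, which links Rab3 to calcium channels, had 50.1 and 52.6 FPKM in control mice, compared with 49.1, 52.2 and 54.5 FPKM in cKO mice, with a log2 fold change of 0.02 (95% interval -0.20 to 0.24). *Rims2* was at -0.03. *Rims3*, a short RIM isoform gene, had 9.52 and 11.4 FPKM in control mice, compared with 6.20, 12.2 and 9.08 FPKM in cKO mice. The lowest and the highest library were both cKO, and its log2 fold change of -0.21 became 0.02 without cKO 1.

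The priming factors *Unc13a* (-0.07) and *Unc13b* (0.07), which encode Munc13 proteins, were near 0. *Unc13b* had 5.30 and 5.60 FPKM in control mice, compared with 5.42, 6.62 and 5.34 FPKM in cKO mice, with overlap. The small GTPases of the vesicle surface, *Rab3a* (-0.05), *Rab3b* (-0.07) and *Rab3c* (-0.08), all overlapped.

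All 6 endocytic genes were negative, with a median of -0.11. *Dnm1*, which encodes the neuronal dynamin that pinches vesicles off (chr2:32163991-32208849, minus strand, mm9), had 111 and 131 FPKM in control mice, compared with 105, 95.5 and 108 FPKM in cKO mice. Every cKO library was below both controls, and its log2 fold change was -0.22 (95% interval -0.48 to 0.03). It was -0.07 within set 1 and -0.36 within set 2. *Snap91*, which encodes the clathrin adaptor AP180, had 71.1 and 64.3 FPKM in control mice, compared with 65.7, 56.3 and 54.2 FPKM in cKO mice (-0.20). Only cKO 1 among the mutant libraries exceeded a control there. *Synj1* (-0.12), whose product synaptojanin helps to uncoat vesicles, did not overlap, with 43.3 and 47.4 FPKM against 41.8, 40.9 and 42.1 FPKM. *Amph* (-0.10), *Sh3gl2* (-0.09) and *Dnm3* (-0.06) overlapped. *Dnm3* shares 355 nucleotides with a gene on the opposite strand, and its value is therefore uncertain.

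The fold changes moved with the base composition of the transcripts. Over all tested genes with a known transcript, the median log2 fold change went from 0.09 in the lowest of 10 equal bins of GC content to -0.11 in the highest. Over the 41 members Pearson's r between GC content and log2 fold change was -0.51 (Spearman's rho -0.54), and over 11760 genes it was -0.33 (-0.37). These are descriptions across genes of the same 5 libraries, and genes are not independent. The trend followed single libraries of both genotypes. From the lowest to the highest bin, control 1 went from -0.08 to 0.16 log2 units around the mean of all libraries and cKO 2 from 0.14 to -0.16.

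**Figure D4:**
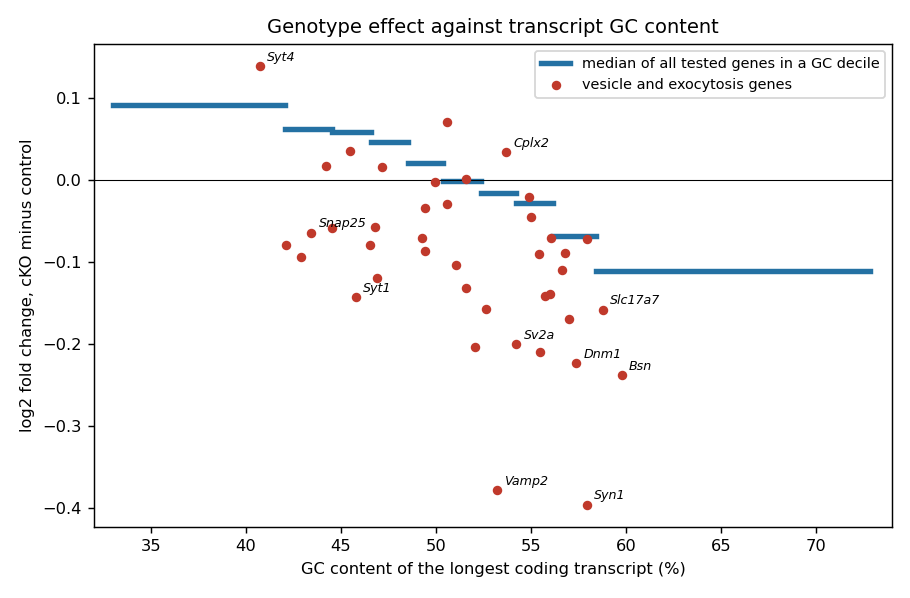
Log2 fold change (*Hdac1* cKO minus control) against the GC content of the longest coding transcript for the 41 genes (red), with the median of all tested genes in each of 10 bins of GC content (blue bars). The medians step down from 0.09 to -0.11, and most members lie beneath the bar of their own GC content, *Syn1* and *Vamp2* furthest.

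The members had a median GC content of 51.6%, beside 50.4% for all genes. After each library was corrected for GC content (a correction added after seeing the data), the members' median was -0.10, with 36 negative beside 49.9% of all genes. *Syn1* stood at -0.33 and *Vamp2* at -0.37, and these 2 were again the members lower at an unadjusted p under 0.05 in limma, against a background of 2.24%. The other members moved both ways. Among those closer to 0 were *Slc17a7* (from -0.16 to -0.08), *Bsn* (from -0.24 to -0.14), *Syp* (from -0.11 to -0.06) and *Stx1a* (from -0.07 to -0.0016), and among those further from 0 were *Snap25* (from -0.06 to -0.12), *Rab3c* (from -0.08 to -0.15), *Sh3gl2* (from -0.09 to -0.16) and *Syt1* (from -0.14 to -0.20). The 10 members that were higher in control 1 than in control 2 (*Syn1*, *Sv2c*, *Slc17a7*, *Vamp1*, *Vamp2*, *Syt2*, *Syt7*, *Cplx1*, *Bsn* and *Snap91*) had a median GC content of 54.5%, against 49.9% for the other 31. All 10 were lower in cKO 2 than in cKO 1, whereas of the other 31 only 6 were. The part of library composition in the members' differences was otherwise not tested.

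Other genes of the same pathway were taken from a list of 102 further genes. Of the 100 tested, 47 were negative and the median log2 fold change was 0.0037, so this wider list did not share the lower median. At an unadjusted p under 0.05 in limma 5 genes were lower (5%, beside 1.99% of all genes) and 0 higher (beside 2.37%). With the set block 8 were lower (beside 4.02%) and 1 higher (beside 5.32%). Values are given here for 3 of the 5. *Sncb*, which encodes beta-synuclein, had 53.8 and 57.3 FPKM in control mice, compared with 39.7, 36.0 and 36.6 FPKM in cKO mice. All cKO libraries were well below both controls (log2 fold change -0.56, unadjusted p 0.000423, adjusted p 0.673 in limma).

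The vesicular transporters *Slc17a6* (6.08 and 6.09 against 3.94, 4.51 and 2.62 FPKM) and *Slc32a1* (8.40 and 8.50 against 6.15, 4.20 and 6.31 FPKM), for glutamate and for GABA and glycine, had log2 fold changes of -0.62 and -0.54 (unadjusted p 0.0104 and 0.0113 in limma). *Slc17a6* marks mainly thalamic and other subcortical glutamatergic neurons. *Sncb* and both transporters belong to the sublist of other vesicle membrane genes, in which 7 of 13 were negative (median -0.0068). The other sublists had medians of -0.05 (other synaptotagmins and calcium sensors, 8 of 13 negative), 0.02 (vesicular proton pump, 15 genes), 0.02 (other endocytic genes, 23 genes), 0.0035 (other active zone and priming genes, 23 genes) and 0.03 (other SNAREs and their partners, 13 genes).

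**Figure D5:**
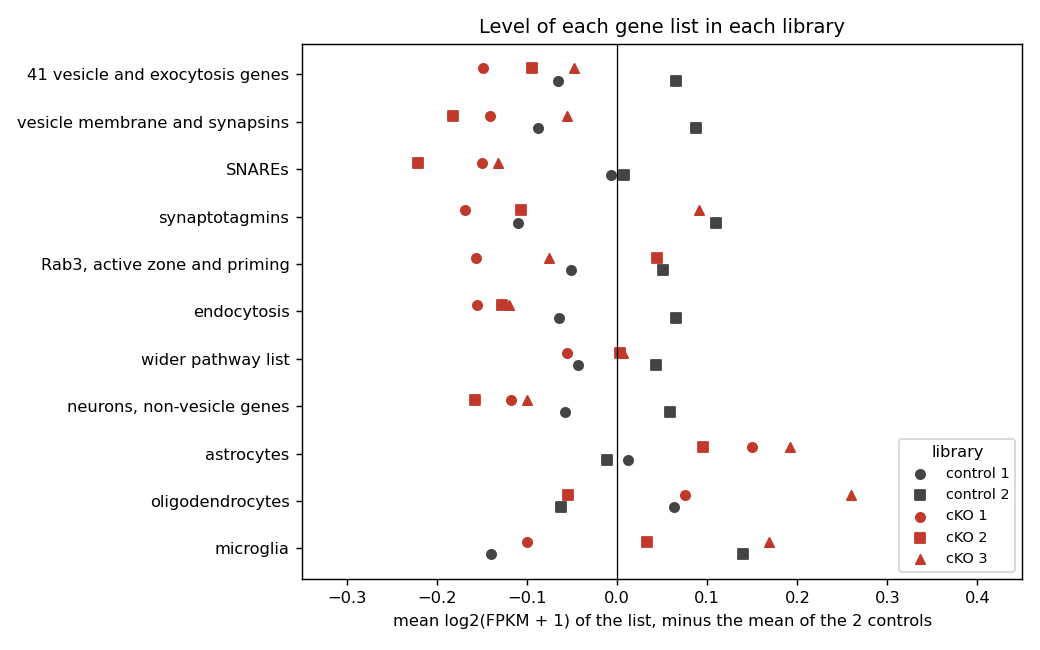
Mean log2(FPKM + 1) of each gene list in each library, as a difference from the mean of the 2 controls. The 41 genes overlap between control 1 and cKO 3, the SNAREs and endocytic genes do not overlap, and the astrocyte list is higher in all 3 cKO libraries.

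Marker lists of cell types were read in the same libraries. The lists are not separate, since *Slc17a6*, *Slc32a1*, *Camk2a*, *Nrgn*, *Neurod6* and *Calb2* each stand in more than 1 of the pathway, cell type, region and postsynaptic lists. Of 15 neuronal genes outside the vesicle pathway 13 were negative, with a median of -0.11, and 3 (*Meg3*, *Stmn2* and *Nefm*) were lower at an unadjusted p under 0.05 in limma (20%, beside 1.99% of all genes). Their mean log2(FPKM + 1) was 6.21 and 6.33 in control mice, compared with 6.15, 6.11 and 6.17 in cKO mice, without overlap, whereas their summed level overlapped, with 2395 and 2608 FPKM in control mice, compared with 2468, 2307 and 2574 FPKM in cKO mice. Of 8 glutamatergic neuron genes, of which *Slc17a7* is also a member of the vesicle set, 7 were negative (median -0.17), their summed level ranging from 1499 to 1608 FPKM in control mice, compared with 1199 to 1572 FPKM in cKO mice. Inhibitory neuron genes had a median of 0.01, and hippocampal subfield genes of -0.04.

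Of 15 astrocyte genes 10 were positive, with a median of 0.13, and *Gfap* and *Aqp4* were higher at an unadjusted p under 0.05 in limma, where 2.37% of all genes were. With the set block 6 of the 15 were higher, beside 5.32% of all genes. For the protein, the study reports that GFAP staining intensity and astrocyte number did not differ in young cKO mice. The list's summed level was 2991 and 2993 FPKM in control mice, compared with 3239 to 3399 FPKM in cKO mice. The oligodendrocyte list had a median of 0.12 and the microglial list of 0.03, both with overlap. Of 10 endothelial genes 7 were negative, with a median of -0.11. At an unadjusted p under 0.05 in limma 1 was lower (10%, beside 1.99% of all genes). With the set block 9 were negative and 2 lower at that p (beside 4.02% of all genes), although the list's summed level overlapped, at 144 to 152 FPKM in control mice and 119.8 to 158 FPKM in cKO mice. Of 10 genes of the thalamus and neighbouring regions 5 were negative and 5 positive, with a median of -0.02, and 2, *Tshz2* and *Slc17a6*, were lower by at least 1.5-fold at an unadjusted p under 0.05 in limma (20%, beside 0.259% of all genes). The summed level of the whole list of 12, with 2 genes below the filter, was 92.8 to 101 FPKM in control mice, compared with 79.4 to 89.4 FPKM in cKO mice, and most of that difference was in *Tshz2*, with means of 22.7 and 11.3 FPKM, a gene named after its values were seen. The choroid plexus list ranged from 50.3 to 683 FPKM between libraries and was highest in cKO 2. The part of tissue composition in the members' lower median was not tested.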

How the data were processed

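Hippocampal RNA-seq libraries (2 control, 3 *Hdac1* cKO) were grouped by genotype label. The values are FPKM, which the authors deposited after alignment with Tophat2 (UCSC mm9) and quantification with Cufflinks 2.0.0 (submitters' processing notes and the study's methods). Whether strand was used is not given in the sources used here. FPKM are not counts, so no count test was run. Log2(FPKM + 1) was tested in the 12740 genes whose mean reached 1 FPKM, with limma 3.58.1 in R 4.3.3 (lmFit, eBayes with trend, genotype only, two-sided, Benjamini-Hochberg over all tested genes). Fold changes on this scale understate the change of low genes. The limma script was tested on simulated data.

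The 41 members, all gene lists and the tests were chosen with earlier results of these data known. Values in every library are given for members with an unadjusted p under 0.05 with or without a replicate block, for the 5 largest fold changes in each direction and for 10 core genes. *Syn2*, *Syngr3*, *Sv2a*, *Syt7*, *Cplx1*, *Snap91* and *Synj1* were given in full after their values were seen. Wider pathway genes are named where the unadjusted p was under 0.05. Of the genes this rule names, 2 are counted but not reported here by name or value.

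Sets of libraries were found from steps of FPKM in genes below 0.3 FPKM (over 10% of genes in a window of 0.05 log2 units). Fragments per library were estimated from the step of genes with 1 transcript of at least 1000 nt (26 to 66 genes) and carry no interval. GC content came from the longest coding transcript (loess, span 0.3), and near copies from BLAST 2.17.0 (at least 95% identity over 200 nt). Gene coordinates are GENCODE vM1 on mm9, 1-based. Promoter windows are RefSeq, GRCm38.p6. Alternatives were another pseudocount, filters, scalings, blocks and leaving out each library.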

Additional observations from a re-analysis of the deposited data

How the results depend on the processing

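No member passed an adjusted p of 0.05 in limma under any alternative. The median log2 fold change of the members stayed negative except in the fit without control replicate 2, which mixes set and genotype. Its range was -0.16 to 0.024 when single libraries were left out, and negative members then numbered 18 to 40. Over all genes the median in those fits ranged from -0.015 to 0.043, with 41.5% to 53.8% negative. With 1 control left out, the other is assumed to vary like the cKO libraries. Scaling to a common total lowered all genes (median -0.05), so the members' median of -0.15 there is 0.11 below it. The number of members lower at an unadjusted p under 0.05 in limma (2) changed with scaling and when single cKO libraries were left out. It was 3 after quantile normalization, with *Dnm1* added (beside 2.20% of all genes), and 3 after scaling to a common total, with *Snap91* added (3.41%). It was 4 without cKO replicate 1 (beside 3.74% of all genes), 1 without cKO replicate 2 (1.36%) and 1 without cKO replicate 3 (1.68%). It was 5 with the set block (beside 4.02% of all genes), 8 with GC correction and set block (4.14%), 5 with GC correction and replicate block (4.28%), and 1 with GC correction without cKO replicate 2 (1.73%). The replicate block, for replicate numbers that the titles share but to which no shared origin is given, left the median at -0.12 and gave 6 lower members (*Dnm1*, *Slc17a7*, *Syn1*, *Syp*, *Syt1* and *Vamp2*), beside 5.31% of all genes. In that fit cKO 3 has no control and adds nothing to the genotype estimate. It raised the genes under an unadjusted p of 0.05 from 555 to 1430, and those under an adjusted p of 0.05 from 1 to 14. The set block gave 1190 and 5. Across genes, r was 0.40 and 0.27 between same-numbered libraries and 0.15 between control 2 and cKO 3. The 2 controls deviate from their mean as exact mirror images, so control 1 and cKO 2 had -0.27. These r are therefore not independent of each other and cannot show that the numbers mark a shared origin. The cause of the changes in these counts was not tested.

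Members near 0 changed sign. *Napb* went from 0.017 to -0.026 after quantile normalization, -0.050 after scaling to a common total, -0.031 under the replicate block, -0.041 under the set block, -0.040 after GC correction, -0.080 after GC correction with the set block, -0.082 after GC correction with the replicate block, -0.074 after GC correction without cKO replicate 2, -0.039 within set 1 and -0.043 within set 2. *Rims1* went from 0.016 to -0.012 after quantile normalization, -0.050 after scaling to a common total, -0.019 under the replicate block, -0.00014 under the set block, -0.032 after GC correction, -0.030 after GC correction with the set block, -0.054 after GC correction with the replicate block, -0.011 after GC correction without cKO replicate 2 and -0.027 within set 1. *Cplx2* went from 0.033 to -0.0029 after quantile normalization, -0.034 after scaling to a common total, -0.0089 under the replicate block and -0.027 within set 2. *Pclo* went from 0.035 to -0.027 after scaling to a common total, -0.018 after GC correction, -0.021 after GC correction with the set block, -0.039 after GC correction without cKO replicate 2 and -0.048 within set 2. *Unc13b* went from 0.070 to -0.019 after GC correction without cKO replicate 2. When single libraries were left out, log2 fold changes ranged from -0.16 to 0.19 for *Napb*, -0.049 to 0.12 for *Cplx2*, -0.069 to 0.14 for *Pclo*, -0.019 to 0.055 for *Rims1*, -0.015 to 0.12 for *Unc13b*, -0.045 to 0.32 for *Syt4*, -0.30 to 0.081 for *Syp*, -0.38 to 0.099 for *Syt1*, -0.16 to 0.033 for *Snap25*, -0.26 to 0.12 for *Stx1a* and -0.42 to 0.017 for *Rims3*. Depth limits *Syn3*, *Sv2c*, *Syt2* and *Rab3b* most.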

Other observations

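Genes of the postsynaptic density and of dense-core vesicles were read as neighbouring lists, chosen after the members. Of 17 postsynaptic scaffold and kinase genes 14 were negative, with a median log2 fold change of -0.09, and 0 passed an unadjusted p of 0.05 in limma. With the set block 5 of them were lower at that p, beside 4.02% of all genes. Every cKO library was below both controls in 4 of them (23.5%, beside 9.41% of all genes). *Dlg4*, which encodes the scaffold PSD-95, had 208 and 191 FPKM in control mice, compared with 179.9, 169 and 175 FPKM in cKO mice, without overlap (log2 fold change -0.19). The postsynaptic list thus had nearly the same median as the 41 presynaptic genes.

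Of 13 genes for dense-core vesicle cargo and its processing 9 were negative, with a median of -0.05. The direction differed between the sets, with a median of 0.045 (5 negative) within set 1 and -0.20 (9 negative) within set 2. With the set block 1 was lower and 2 were higher at an unadjusted p under 0.05 in limma, beside 4.02% and 5.32% of all genes. *Vgf*, which encodes a neuropeptide precursor induced by activity, had 33.7 and 24.9 FPKM in control mice, compared with 22.6, 13.9 and 18.5 FPKM in cKO mice. All cKO libraries were below both controls, although the controls were further apart from each other than cKO 1 was from control 2 (log2 fold change -0.66, unadjusted p 0.0115, adjusted p 0.955 in limma). *Scg2*, which encodes the cargo protein secretogranin II, had 60.7 and 91.2 FPKM in control mice, compared with 72.0, 101 and 100.3 FPKM in cKO mice, with overlap (0.27). *Dlg4* and *Scg2* were chosen after their values were seen.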
